A study of Mus musculus with 18 samples.

Results

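The step from 10 to 50 μg/mL of alginate oligosaccharides (AOS) was examined ex vivo, in cultured testes of mice that had received busulfan. The comparison took 6 of the 18 samples of the series, chosen by the dose and treatment in their labels, and 14656 of the 22657 genes in the table, those with an FPKM (fragments mapped to a gene, scaled to the gene's length and to the sample's mapped fragments) of at least 1 in 3 or more of the 6 samples. BA10 (n = 3) and BA50 (n = 3) were testes of ICR mice, an outbred stock, given busulfan once at 3 weeks of age (40 μg per g body weight), and the testes were taken 2 weeks later. They were then kept for 48 h in DMEM/F12 medium with 10% serum, at 37 °C and 5% CO2, with AOS at 10 μg/mL in BA10 and 50 μg/mL in BA50. This dose unit is that of the sample labels and the study's methods, whereas the series record gives the same figures per kg of body weight. The same step without busulfan, A50 (n = 3) against A10 (n = 3), in age-matched untreated testes under the same culture, served for comparison. Both BA10 and BA50 came from mice given busulfan and were cultured with AOS. The contrast therefore compared doses of AOS and held no group without busulfan or without AOS. Differences between the tissues used for the samples could enter it too.

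AOS are short sugar chains cut from alginate, a polysaccharide of brown seaweed. Busulfan is an alkylating drug that kills dividing cells, in the testis above all the spermatogonia, the cells from which sperm formation starts. Spermatogonia give rise to spermatocytes, which pass through meiosis to become round and then elongating spermatids. In the elongating spermatid, transition proteins and then protamines replace most histones and pack the DNA. Sertoli cells nurse the germ cells, Leydig cells between the tubules make testosterone, and macrophages lie around both. The question put to the data was whether the higher dose differed from the lower one in any gene, germ cell stage, somatic cell type or pathway.

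In bulk tissue, fewer cells of a type and less RNA per cell cannot be told apart. The labels do not say that the 3 samples of a group came from separate animals or cultures. The study's methods describe several testes per treatment and repeated cultures. The p-values therefore measure the spread between these samples, which may be partly technical. Markers of the testis were present in all 6 samples: the Sertoli gene Cldn11 lay between 266 and 454 FPKM, the Leydig gene Insl3 between 354 and 1011 FPKM, and the protamine gene Prm1 between 1181 and 3057 FPKM. Of 14 markers of lymphocytes and neutrophils, 1 passed the filter on low values. The FPKM of a sample summed to between 469986 and 499871 over all genes in the 6 samples. The number of reads behind these values is unknown.

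By limma with Benjamini-Hochberg adjustment, no gene differed between BA50 and BA10 by the study's limits (called: 0%). These were an adjusted p of at most 0.001 and a log2 difference of at least 1. Nor did any gene differ at an adjusted p under 0.05 (limma). The study applied its limits with another test, DEGseq, and its reported comparisons did not include BA50 against BA10. The smallest adjusted p among the 14656 genes was 0.587. At an unadjusted p under 0.05, 528 genes (3.6%) stood apart, of which 290 were higher (1.98%) and 238 lower (1.62%) in BA50. After rescaling each sample to the same FPKM sum, the same limit left 166 higher and 420 lower genes, so the balance of directions depended on the scale. The 3 samples of BA50 lay entirely above those of BA10 in 666 genes (4.54%) and entirely below in 776 (5.29%), together 9.84%. The group means differed by a factor of 2 or more in 82 genes higher (0.559%) and 92 lower (0.628%) in BA50. An exact two-sided permutation test of 3 against 3 samples cannot give a p below 0.1. The median log2 difference over all genes tested was -0.00080. Its standard error had a median of 0.16 over genes, and the 95% interval reached a median of 0.39 to either side. For 12646 genes (86.3%), the 95% interval lay wholly within 1 log2 unit of 0.

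Samples with the same replicate number resembled each other across the doses only in part. By the Pearson correlation of their levels, BA10 replicates 2 and 3 were each closest, among the BA50 samples, to their own number. BA10 replicate 1 was instead closer to BA50 replicate 3 than to BA50 replicate 1. On the first principal component, which held 50.2% of the variance, BA10 replicate 2 (25.2) and BA50 replicate 2 (44.0) stood apart from the other 4 samples (-25.1 to -0.88). The second component, with 23.3% of the variance, set BA50 replicate 1 (36.1) apart from the other 5 samples (-16.8 to 4.95). Neither axis separated the doses. In some single genes, replicate 3 stood apart at both doses. Cdkn1a, the p53-driven inhibitor of the cell cycle, measured 65.3, 62.3 and 9.05 FPKM in BA10 replicates 1 to 3, and 177, 59.3 and 9.19 FPKM in BA50. In both groups replicate 3 was far below the others. Slc2a1, the main glucose transporter of most cells, measured 60.3, 48.9 and 138 FPKM in BA10 and 64.0, 45.4 and 141 FPKM in BA50, so that replicate 3 was the highest at either dose.

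What a replicate number marks is not given in the labels. With the replicate numbers added to limma as a block, the median standard error was 0.097. In this limma fit 2514 genes (17.2%) reached an unadjusted p under 0.05, with 1374 higher (9.38%) and 1140 lower (7.78%) in BA50. Still no gene reached an adjusted p under 0.05 by limma (0%), and the smallest was 0.252. All 3 number-matched pairs went the same way in 6523 genes (44.5%), 3231 higher (22%) and 3292 lower (22.5%).

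**Figure D1:**
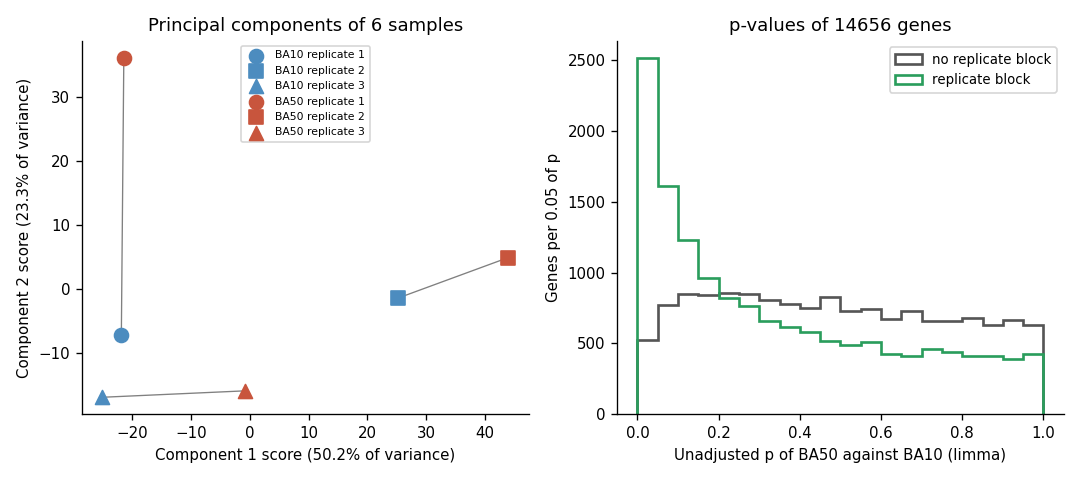
Left, scores of the 6 samples on the first and second principal components of log2(FPKM + 1), with grey lines joining samples of the same replicate number; the samples numbered 2 lie at the right at both doses. Right, number of genes in each 0.05 step of the unadjusted limma p, without and with the replicate number as a block; the first step holds 528 and 2514 genes.

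The genes that follow were taken by a fixed rule: an unadjusted p under 0.05, no overlap between the groups and a mean of at least 5 FPKM in the higher group, ranked by the size of the log2 difference. The rule was met by 192 higher and 150 lower genes, of which 12 in each direction are described. Their adjusted p was 0.930 for every one of the 24 (limma). The values are thus a description of the samples and none counts as a change.

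Among the genes with higher values in BA50, Uchl1, a ubiquitin hydrolase abundant in spermatogonia, measured 44.8, 48.6 and 54.4 FPKM in BA10 and 93.56, 99.98 and 66.07 FPKM in BA50. Every BA50 sample lay above every BA10 sample, and the log2 difference was 0.78 (SE 0.18). C1qtnf4, which encodes a secreted protein of the C1q and TNF-related family (chr2:90885860-90890525, GRCm38), measured 21.8, 29.8 and 23.3 FPKM in BA10 and 37.4, 49.1 and 46.5 FPKM in BA50, with a log2 difference of 0.81 (SE 0.16). Its near neighbour Ptpmt1 (chr2:90908716-90918258), a mitochondrial phosphatase in the synthesis of cardiolipin, measured 16.3, 21.2 and 16.6 FPKM in BA10 against 26.9, 32.7 and 24.97 FPKM in BA50. The pairs of the latter gene differed by 0.69, 0.60 and 0.56 log2 units, all upward and of like size. Atp5g1, a gene for the membrane ring of the ATP synthase, measured 68.7, 47.8 and 59.0 FPKM in BA10 and 105, 109 and 72.8 FPKM in BA50 (log2 difference 0.69, SE 0.21). Its number 3 pair differed least, by 0.30.

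Other genes with higher values included germ cell genes. Tcp10c, of the t-complex genes and with near-identical copies that make its value uncertain, measured 75.1, 90.8 and 76.2 FPKM in BA10 and 107, 184 and 119 FPKM in BA50. Spef1l, named for its likeness to a sperm flagellar gene, measured 8.24, 9.13 and 10.3 FPKM in BA10 and 12.7, 15.9 and 16.2 FPKM in BA50. BA50 replicate 2 was the highest sample for the first and BA50 replicate 3 for the second. Fam98c went from 24.1, 32.1 and 32.5 FPKM to 44.2, 66.5 and 48.7 FPKM (log2 difference 0.82, SE 0.19). Frmd8, whose product binds the iRhom proteins, and Myl10, a myosin light chain gene, had log2 differences of 0.70 (SE 0.21) and 0.62 (SE 0.18). In Daxx, Pigp and Skiv2l, BA50 replicate 1 was the highest sample. Daxx, a chaperone for a histone H3 variant, measured 1.82, 3.21 and 1.58 FPKM in BA10 and 15.3, 3.91 and 4.44 FPKM in BA50. Pigp, part of the enzyme that begins GPI anchor synthesis, measured 0.95, 0.96 and 1.27 FPKM in BA10 and 10.5, 3.35 and 1.47 FPKM in BA50. For both, the number 1 pair differed by over 2 log2 units (2.53 for Daxx and 2.56 for Pigp), and the smallest pair by 0.22 and 0.12. Without BA50 replicate 1 the log2 differences were 0.72 for Daxx, 0.67 for Pigp and 0.43 for Skiv2l, from 1.28, 1.28 and 0.68. Skiv2l, an RNA helicase that works with the exosome, measured 15.01 FPKM in BA50 replicate 1 and 8.65 and 8.41 FPKM in the other BA50 samples, against 5.79 to 6.67 FPKM in BA10.

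Among the genes with lower values in BA50, Serpina5, the protein C inhibitor that is secreted in the male tract (chr12:104101113-104106137), measured 28.8, 61.7 and 48.8 FPKM in BA10 and 17.1, 14.3 and 15.9 FPKM in BA50. The BA50 samples lay close together and all below BA10, with a log2 difference of -1.44 (SE 0.27, 95% interval -2.09 to -0.78). The adjacent serpin gene Serpina3a (chr12:104112724-104121896), one of a family of close copies, measured 8.83, 11.8 and 8.82 FPKM in BA10 and 3.86, 8.08 and 4.65 FPKM in BA50. Spink8, a protease inhibitor of the Kazal type, measured 14.2, 20.1 and 3.80 FPKM in BA10 and 3.10, 3.26 and 2.23 FPKM in BA50. The third BA10 sample of Spink8 was near the BA50 values. Mmp12, the macrophage elastase, measured 123, 168 and 167 FPKM in BA10 and 37.4, 69.5 and 115 FPKM in BA50 (log2 difference -1.16, SE 0.39). Its differences ran from -1.69 in the number 1 pair to -0.53 in the number 3 pair. Lilr4b, an inhibitory receptor of myeloid cells with close copies, measured 33.1, 21.8 and 29.5 FPKM in BA10 and 17.5, 11.3 and 20.9 FPKM in BA50.

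Trp53inp1, a p53 target that takes part in autophagy and cell death, measured 33.7, 22.5 and 36.1 FPKM in BA10 and 21.7, 13.02 and 18.8 FPKM in BA50, with pair differences of -0.62, -0.75 and -0.90. Acsf2, an acyl-CoA synthetase, measured 29.5, 28.8 and 21.3 FPKM in BA10 and 17.2, 7.23 and 15.8 FPKM in BA50. Retsat, which saturates retinol, went from 16.5, 22.5 and 11.1 FPKM to 6.33, 10.99 and 9.54 FPKM. For Acsf2 the second BA50 sample was the lowest, and for Retsat the first. Tnni3, the cardiac form of troponin I, measured 9.15, 13.9 and 12.4 FPKM in BA10 and 4.96, 4.12 and 6.61 FPKM in BA50 (log2 difference -1.04, SE 0.21). The other 3 are genes with close copies or pseudogenes, which leaves their values uncertain. They were the splicing factor gene Cwc22 (-1.63, SE 0.52), the alpha globin gene Hba-a1 (-1.19, SE 0.28) and the ribosomal protein gene Rps6 (-0.79, SE 0.22), all as log2 differences.

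**Figure D2:**
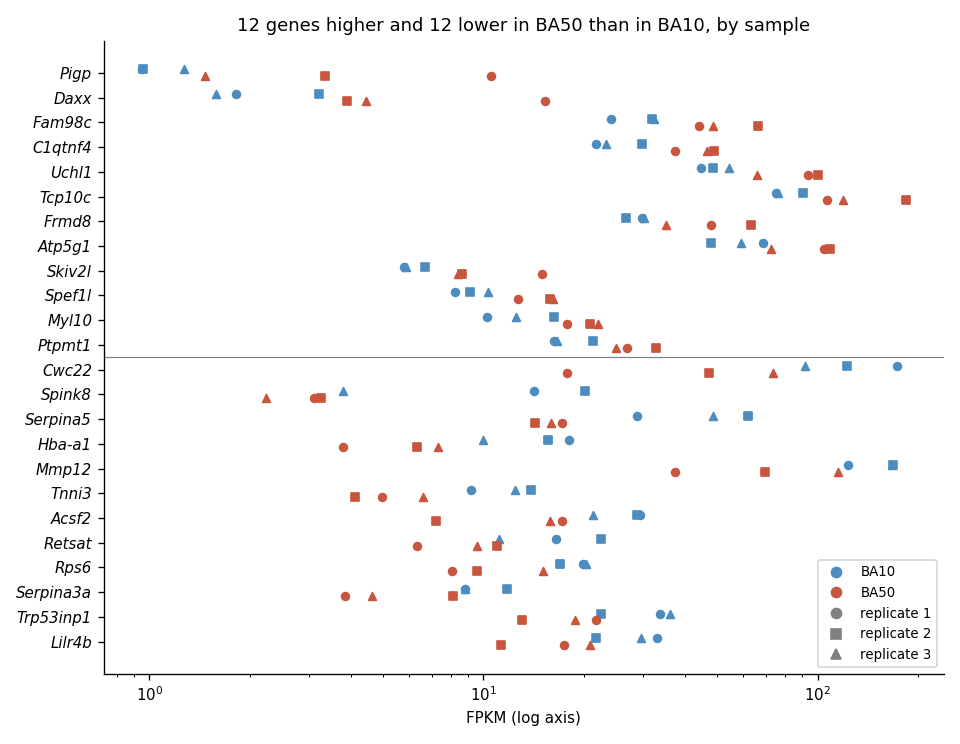
FPKM of 12 genes with higher and 12 with lower values in BA50 than in BA10, on a log axis; each marker is 1 sample, blue for BA10 and red for BA50, with the shape giving the replicate number. The groups do not overlap in any row because the rule required it; Daxx and Pigp are led by BA50 replicate 1.

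The levels of 4 of these genes in the other groups were set beside them. Serpina5 measured 46.6 to 91.5 FPKM in A0 (no AOS, no busulfan), 17.3 to 40.8 FPKM in A10, 9.55 to 26.3 FPKM in A50 and 59.4 to 86.6 FPKM in B0 (busulfan, no AOS). Its A50 minus A10 log2 difference was -0.74, with groups that overlapped, so its mean was lower at 50 than at 10 μg/mL in both arms, with separate groups in the busulfan arm. The difference between the steps was -0.70 (unadjusted p = 0.262, limma adjusted p = 1.00) and was not resolved. Mmp12 measured 51.0 to 108 FPKM in A0, 94.2 to 117 FPKM in A10, 82.7 to 96.7 FPKM in A50 and 78.0 to 109 FPKM in B0. Every BA10 sample (123 to 168 FPKM) lay above every sample of the other 5 groups. In BA50 only the lowest sample, 37.4 FPKM, lay under every sample of the other 5 groups. Uchl1 in BA50 (66.07 to 99.98 FPKM) lay within the range of A0 (60.9 to 100.1 FPKM), and its lowest sample was exceeded by 1 sample of A10 (69.9 FPKM) and by none of A50, B0 or BA10. C1qtnf4 measured 38.8 to 45.3 FPKM in A50, near the values of BA50, and 28.6, 35.0 and 76.8 FPKM in A10.

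**Figure D3:**
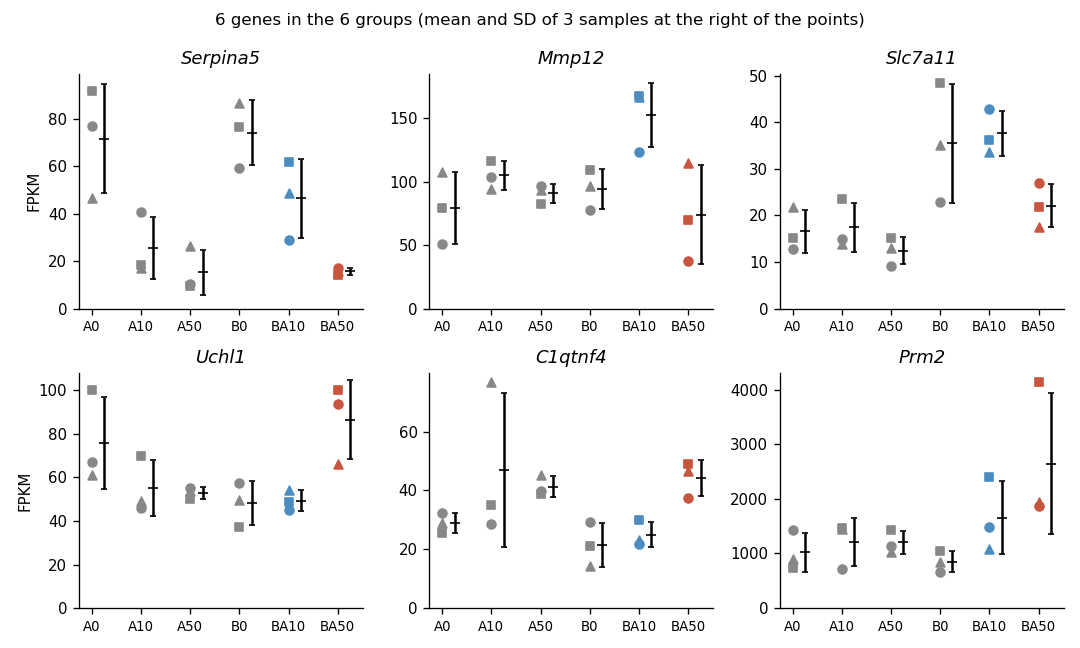
FPKM of 6 genes in all 6 groups, with the mean and SD of 3 samples at the right of the points (BA10 blue, BA50 red, other groups grey; circle, square and triangle for replicates 1, 2 and 3). Serpina5 lies between 14.3 and 17.1 FPKM in BA50 and between 28.8 and 61.7 FPKM in BA10, and Prm2 overlaps between the doses.

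The germ cell lists were described next, by stage, from markers of each. Of 24 markers of elongating spermatids, 23 were tested, and the mean of all 23 was higher in BA50 (against 49.8% of all genes). Not one was past an unadjusted p of 0.05 in the fit without block, and none had separate groups. With the block, 14 of the 23 were past it, against 9.38% of all genes in this direction, and 0 at an adjusted p under 0.05 (limma). The median log2 difference of the list was 0.41, compared with -0.00080 for all genes. In the 3 pairs the medians were 0.16, 0.36 and 0.67. Without BA50 replicate 2 the list median was 0.15, and without BA10 replicate 2 it was 0.62.

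The protamine gene Prm2 measured 1486, 2397 and 1090 FPKM in BA10 and 1870, 4128 and 1933 FPKM in BA50, a log2 difference of 0.65 (95% interval -0.37 to 1.66). The number 2 sample was the highest at each dose, and the groups overlapped. Prm1 measured 1418, 1807 and 1181 FPKM in BA10 and 1382, 3057 and 1837 FPKM in BA50, with no difference in the number 1 pair (-0.04). The transition protein genes Tnp1 and Tnp2 had log2 differences of 0.41 (95% interval -0.36 to 1.17) and 0.46 (95% interval -0.33 to 1.25). Both were slightly lower at the higher dose in the number 1 pair (-0.17 and -0.13) and higher in the other two. Odf1, a gene for the outer dense fibers of the tail, measured 285, 477 and 241 FPKM in BA10 and 362, 584 and 374 FPKM in BA50. Tssk6, a kinase needed for chromatin packing in spermatids, measured 22.01, 35.6 and 19.6 FPKM in BA10 and 35.6, 47.5 and 32.8 FPKM in BA50. This was the member with the smallest p (0.0534 unadjusted, 0.00158 with the block, limma).

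All 20 markers of round spermatids had a higher mean in BA50, with a median log2 difference of 0.29 and pair medians of 0.07, 0.11 and 0.56. None was past an unadjusted p of 0.05 (limma without block) and none had separate groups, against 3.6% and 9.84% of all genes. Acrv1, an acrosomal protein gene, measured 63.2, 108 and 53.3 FPKM in BA10 and 63.0, 104 and 83.4 FPKM in BA50. Spata16, needed for acrosome formation, measured 38.8, 53.1 and 43.4 FPKM in BA10 and 43.4, 70.7 and 61.5 FPKM in BA50. The first of these was higher only in the number 3 pair, the second in all 3 pairs. Of the late spermatocyte markers, 16 of 18 had a higher mean (median 0.26). Ldhc, the lactate dehydrogenase of germ cells, measured 674, 981 and 701 FPKM in BA10 and 702, 1155 and 1068 FPKM in BA50. Without BA50 replicate 2 the medians were 0.08 for round spermatids and 0.10 for late spermatocytes. Lists of earlier cells lay nearer to 0. Of early spermatocyte markers, 10 of 15 had a higher mean (median 0.08, and -0.05 without BA50 replicate 2), and of spermatogonial markers 5 of 9 (median 0.00).

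Sycp3, of the synaptonemal complex that joins chromosomes in meiosis, measured 12.7, 14.8 and 11.3 FPKM in BA10 and 8.25, 14.4 and 12.9 FPKM in BA50 (log2 difference -0.14, 95% interval -0.66 to 0.38). The RNA helicase gene Ddx4 had a log2 difference of 0.21 (95% interval -0.41 to 0.82), and Dazl, an RNA-binding protein gene of germ cells, one of 0.21 (95% interval -0.85 to 1.26). Dazl measured 4.13, 6.82 and 3.84 FPKM in BA10 and 2.72, 11.2 and 5.62 FPKM in BA50, and without BA50 replicate 2 its log2 difference was -0.22. Zbtb16, a marker of undifferentiated spermatogonia, measured 2.90, 1.35 and 2.51 FPKM in BA10 and 2.26, 1.00 and 1.63 FPKM in BA50. Uchl1 was the 1 spermatogonial marker of 9 whose groups did not overlap, against 9.84% of all genes (4.54% in the higher direction).

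**Figure D4:**
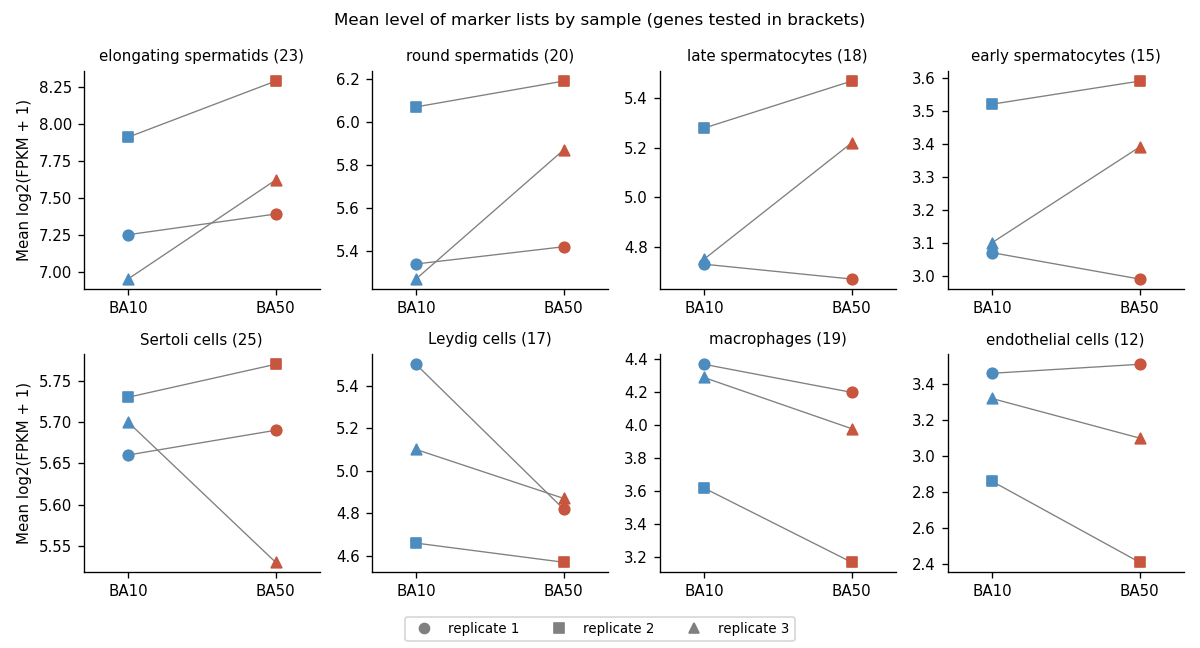
Mean log2(FPKM + 1) over the tested markers of 8 cell types in each sample, with grey lines joining BA10 and BA50 samples of the same replicate number. Elongating spermatid markers were higher at the higher dose in each of the 3 pairs and Leydig and macrophage markers lower in each, while the groups overlapped in every panel.

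The mean log2 level of the elongating spermatid list was 7.25, 7.91 and 6.95 in BA10 and 7.39, 8.29 and 7.62 in BA50. Every pair was higher at 50 μg/mL, but BA10 replicate 2 exceeded 2 of the 3 BA50 samples. Lists of other cell types did not all vary with this level. The Sertoli list ran only from 5.53 (BA50 replicate 3) to 5.77 (BA50 replicate 2) over the 6 samples. The macrophage list had mean log2 levels of 4.37, 3.62 and 4.29 in BA10 and 4.20, 3.17 and 3.98 in BA50. The samples numbered 2 were the highest in spermatid markers and the lowest in macrophage markers at both doses. Summed FPKM over the 23 spermatid markers ran from 5959 to 10997 in BA10 and from 8084 to 16249 in BA50, and over the 19 macrophage markers from 791 to 1095 and from 560 to 1005. The part that cell content had in any single gene was not tested.

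The Leydig and macrophage lists leaned the other way. Of 17 Leydig cell markers tested, 15 had a lower mean in BA50 (median -0.36), with pair medians of -0.58, -0.10 and -0.31. Star, which carries cholesterol into the mitochondrion for steroid synthesis, measured 492, 361 and 373 FPKM in BA10 and 258, 332 and 276 FPKM in BA50. Its groups did not overlap (log2 difference -0.49, SE 0.18, unadjusted p = 0.0294, limma adjusted p = 0.930). Cyp11a1, the side-chain cleavage enzyme, measured 759, 228 and 414 FPKM in BA10 and 388, 233 and 319 FPKM in BA50, and was level in the number 2 pair. Sult1e1, the estrogen sulfotransferase, measured 48.0, 12.3 and 21.2 FPKM in BA10 and 14.4, 7.0 and 11.5 FPKM in BA50. Insl3, the insulin-like hormone of Leydig cells, went against the others, with 1011, 354 and 496 FPKM in BA10 and 477, 691 and 755 FPKM in BA50. Without BA50 replicate 2 the Leydig median was -0.09.

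Of 19 macrophage markers, 17 had a lower mean in BA50 (median -0.35). None was past an unadjusted p of 0.05 (limma without block) and none had separate groups, against 3.6% and 9.84% of all genes. The complement gene C1qa measured 76.4, 29.99 and 64.6 FPKM in BA10 and 70.1, 11.7 and 43.8 FPKM in BA50. Cd68, a lysosomal protein gene of macrophages, measured 96.2, 56.1 and 84.1 FPKM in BA10 and 87.9, 43.5 and 90.0 FPKM in BA50. The lowest sample of both genes was BA50 replicate 2, and without it the list median was 0.06, of the opposite sign. Endothelial markers (11 of 12 lower, median -0.23) and fibroblast markers (12 of 15 lower, median -0.19) also had the opposite sign without that sample, at 0.11 and 0.28. Sertoli markers stood near 0, with 13 of 25 higher and a median of 0.02. Sox9, the transcription factor of Sertoli cells, measured 14.8, 21.1 and 17.1 FPKM in BA10 and 18.9, 23.5 and 13.2 FPKM in BA50 (log2 difference 0.04, 95% interval -0.51 to 0.60). Peritubular myoid markers had a higher mean in 10 of 13 (median 0.16), with BA50 replicate 1 ahead for the smooth muscle actin gene Acta2 (98.7 FPKM, against 32.5 to 42.7 FPKM in the other 5 samples). Fat cell markers were divided (5 of 10 higher, median -0.02), 6 of 9 epithelial and epididymal markers had a lower mean (median -0.12), and 3 erythrocyte markers had a median of -0.27. Of 10 skeletal muscle markers, 1 passed the filter on low values.

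Inflammatory mediators were lower in the mean of BA50 for 16 of 20 genes (median -0.38), and the pair medians were -0.50, -0.26 and -0.39. Il6, a cytokine of the acute response, measured 22.6, 17.8 and 25.97 FPKM in BA10 and 14.98, 13.5 and 18.2 FPKM in BA50. Ccl4, a chemokine for monocytes, measured 11.6, 7.64 and 8.77 FPKM in BA10 and 6.68, 5.44 and 5.79 FPKM in BA50. The 3 BA50 samples of Ccl4 lay below all BA10 samples, while those of Il6 overlapped by 1 sample. Ptgs2, the inducible cyclooxygenase, measured 46.5, 44.0 and 121 FPKM in BA10 and 30.4, 28.2 and 49.9 FPKM in BA50. In this list 3 members were past an unadjusted p of 0.05 without the block, Il6, Ccl4 and Ccl7, all lower, against 1.62% of all genes. With the block 8 were, against 7.78% of all genes in this direction. Ccl2, the monocyte chemoattractant, was nearly level in every pair, with 249, 161 and 160 FPKM in BA10 and 249, 164 and 166 FPKM in BA50. Without BA50 replicate 2 the list median was -0.22. Il1b, Tnf and Nos2 did not pass the filter on low values.

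Toll-like receptor genes and their signalling partners had a lower mean in 19 of 21 (median -0.09). Cd14, the co-receptor for bacterial lipopolysaccharide, measured 68.4, 59.8 and 79.7 FPKM in BA10 and 50.2, 46.2 and 61.1 FPKM in BA50. Tlr4 measured 4.84, 3.92 and 3.62 FPKM in BA10 and 3.53, 1.87 and 2.91 FPKM in BA50. Among genes that handle sugar chains, 16 of 20 had a lower mean (median -0.19), and the scavenger receptor gene Msr1 measured 56.2, 44.2 and 47.3 FPKM in BA10 and 39.9, 33.7 and 35.5 FPKM in BA50. The groups of Msr1 did not overlap and those of Cd14 did. Without BA50 replicate 2 the median of the Toll-like receptor list was 0.00 and that of the sugar list -0.02. Msr1 and Cd14 are also genes of macrophages, whose marker levels are given above.

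Genes of stress responses had small differences. Of 25 targets of NRF2 (the regulator of antioxidant genes) and glutathione genes, 19 had a lower mean in BA50 (median -0.17, and -0.14 without BA50 replicate 2). Slc7a11, which imports cystine for glutathione synthesis, measured 42.9, 36.2 and 33.7 FPKM in BA10 and 26.9, 21.9 and 17.6 FPKM in BA50. All 3 pairs were lower, by 0.65, 0.70 and 0.90 log2 units, and the groups did not overlap. Catalase (Cat) measured 91.5, 77.8 and 77.4 FPKM in BA10 and 60.3, 52.1 and 63.4 FPKM in BA50 (log2 difference -0.48, SE 0.13). The quinone reductase gene Nqo1 measured 39.4, 45.3 and 40.2 FPKM in BA10 and 35.3, 32.5 and 29.2 FPKM in BA50. Hmox1, heme oxygenase, did not follow them, with 861, 886 and 967 FPKM in BA10 and 1119, 614 and 685 FPKM in BA50. Gpx4, the lipid peroxidase that sperm use as a structural protein, had a higher mean in BA50, with a log2 difference of 0.32 (SE 0.20).

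Of 24 p53 targets, 19 had a lower mean in BA50 (median -0.15, and -0.04 without BA50 replicate 2). Gadd45a, induced by DNA damage, measured 102, 96.3 and 101 FPKM in BA10 and 80.6, 83.2 and 82.9 FPKM in BA50, with groups that did not overlap and a log2 difference of -0.28 (SE 0.09). Mdm2, which degrades p53, measured 43.5, 49.2 and 46.0 FPKM in BA10 and 43.9, 43.0 and 44.2 FPKM in BA50. Bax, a pore-forming effector of apoptosis, was higher in each pair but by little (log2 difference 0.14, SE 0.15). Bcl2l11, which encodes the cell death activator Bim, measured 9.71, 9.81 and 10.0 FPKM in BA10 and 5.44, 5.91 and 6.45 FPKM in BA50. Its log2 difference was -0.65 (SE 0.10, unadjusted p = 0.000543, limma), while no gene tested had an adjusted p below 0.587 (limma). The survival gene Bcl2l1 was higher, with 39.4, 38.0 and 38.9 FPKM in BA10 and 52.6, 47.8 and 41.8 FPKM in BA50 (log2 difference 0.28, SE 0.11). The list of apoptosis regulators as a whole had 8 higher and 13 lower members of 21.

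Among genes of DNA replication and mitosis, 22 of 27 had a higher mean in BA50 (median 0.14, also without BA50 replicate 2). Ccnb1, the cyclin that starts mitosis, measured 15.9, 18.2 and 14.2 FPKM in BA10 and 18.6, 22.9 and 20.3 FPKM in BA50. Mki67, a marker of cycling cells, measured 4.17, 3.67 and 3.29 FPKM in BA10 and 4.59, 3.02 and 2.83 FPKM in BA50. The groups of Ccnb1 did not overlap, and those of Mki67 did. Respiratory chain genes had a higher mean in 25 of 32 (median 0.10), of which Uqcrc1, a core subunit of complex III, measured 83.3, 85.7 and 81.5 FPKM in BA10 and 96.1, 102 and 97.3 FPKM in BA50. Cholesterol synthesis genes had a lower mean in 17 of 22 (median -0.10), but the pairs went apart, with medians of -0.60, 0.12 and 0.17. Junction genes of the blood-testis barrier (median 0.05), heat shock and chaperone genes (0.02), interferon-stimulated genes (0.02), hypoxia genes (0.00), retinoic acid genes (-0.02), immediate early genes (-0.04), matrix genes (-0.07) and cytosolic ribosomal protein genes (0.08) lay within 0.1 of 0 as lists.

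**Figure D5:**
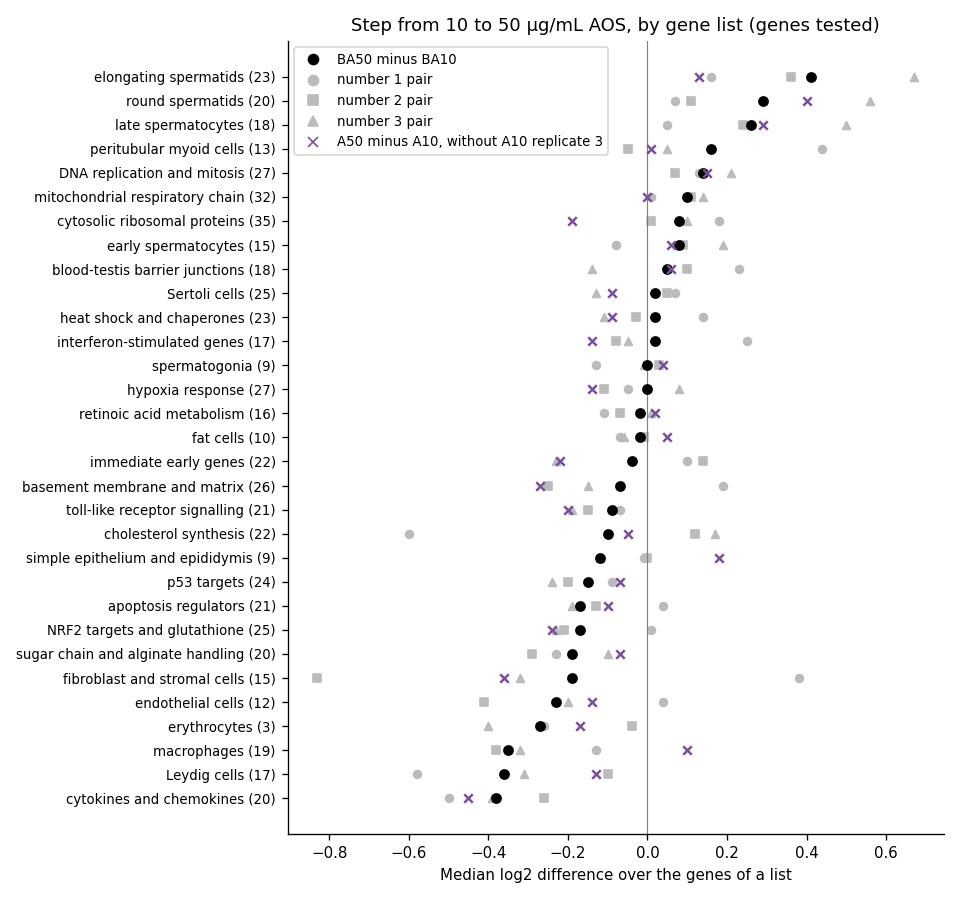
Median log2 difference over the tested genes of each list between 50 and 10 μg/mL AOS; black points give BA50 minus BA10, grey markers the 3 number-matched pairs and purple crosses A50 minus A10 without A10 replicate 3. Elongating spermatids are at the top (0.41) and cytokines and chemokines at the bottom (-0.38).

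The same dose step in testes without busulfan gave 431 of 14971 genes (2.88%) at an unadjusted p under 0.05 and 0 by the study's limits (limma), with 1 gene (0.00668%) at an adjusted p under 0.05. The difference between the steps was tested directly over the 12 samples. No gene of 15421 differed between them at an adjusted p under 0.05 (limma), and the smallest adjusted p was 0.443. With 1 sample left out, the smallest adjusted p was 0.0044 without A10 replicate 2 and 0.0114 without BA50 replicate 2, and no gene met the study's limits in either. At an unadjusted p under 0.05, 235 genes (1.52%) had steps that differed, of which 111 (0.72%) had a step that was higher with busulfan and 124 (0.804%) one that was lower. Across 14381 genes tested in both, the log2 differences of the steps had a Pearson r of -0.03 and a Spearman rho of 0.13. Genes are not independent replicates, and the value rested on single samples. Without A10 replicate 3 it was 0.44 (rho 0.55), and without A10 replicate 3 and BA50 replicate 2 it was 0.11 (rho 0.18).

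Elongating spermatid markers had a median A50 minus A10 difference of -0.11, or 0.13 without A10 replicate 3, against 0.41 with busulfan. Round spermatid markers had 0.03, or 0.40 without that sample, against 0.29. Cytokine and chemokine genes had -0.44 (-0.45 without that sample) against -0.38, so the median was of like size in both arms. The macrophage list had 0.21 (0.10 without that sample) against -0.35. These differences between the arms were not tested as lists.

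Among single genes whose steps differed most by the rule, Tnni3 and Acsf2 had steps of -1.04 and -1.0 with busulfan and 0.54 and 0.62 without it. Mdk, the growth factor midkine, measured 20.5, 28.2 and 22.2 FPKM in BA10 and 16.0, 6.71 and 19.9 FPKM in BA50, a step of -0.80 against 0.52 without busulfan. Lgi4, a secreted glial protein gene, had a step of -0.73 against 0.36. In the other direction, Rsph3a, a gene for the radial spokes of flagella, measured 43.7, 34.8 and 48.1 FPKM in BA10 and 55.7, 69.3 and 66.0 FPKM in BA50, a step of 0.59 against -0.50. The unadjusted p of the difference was 0.00912 for Rsph3a and 0.0398 for Tnni3, and the adjusted p was 1.00 for each (limma). In A10, replicate 3 was the lowest sample for Tnni3, Acsf2, Mdk and Lgi4 (2.49, 6.65, 13.56 and 1.02 FPKM). The other A10 samples of these genes measured at least 10.52, 16.7, 21.22 and 3.52 FPKM. For Rsph3a, A10 replicate 3 was the highest (187.8 FPKM, against 122.3 FPKM or less). The steps without busulfan therefore leaned on that sample. The other A10 samples lay within the A50 range for Tnni3 (14.6 and 10.52 against 7.76 to 17.91 FPKM) and Lgi4 (3.52 and 3.71 against 2.41 to 4.31 FPKM). The same held for Rsph3a (98.97 and 122.3 against 80.46 to 123.6 FPKM). For Acsf2 and Mdk they overlapped the A50 samples. Steps in opposite directions between the arms thus did not stand apart from the spread without that sample, and they were not tested without it.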

How the data were processed

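Expression was measured by RNA-seq of cultured testes. The authors deposited 1 table of FPKM values per gene and sample, and those values were used as they stand. HISAT, Bowtie2, RSEM and the build GRCm38.p5 are named in the submitters' processing notes, whereas the study's supplementary methods describe SOAPaligner and RPKM. The column headers say FPKM, and which pipeline made the values was not settled. Counts were not used here, so depth is unknown. For genes with low values, 17.9% of the ratios to the gene's lowest sample lay within 0.1 of a whole number. This check cannot decide whether the values share a common step, because the samples may differ in depth. Gene numbers were matched to symbols for 20656 of 20811, and 1846 gene models of the sequencing provider carry none. Positions came from the GENCODE annotation of GRCm38.

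Genes with FPKM of at least 1 in 3 or more of the 6 samples were tested as log2(FPKM + 1) with limma 3.58.1 (trended variance, Benjamini-Hochberg adjustment). Log2 differences on this scale understate the change of low genes. The fit was tested on simulated data. The replicate numbers in the labels were used to pair the samples. Same-numbered samples' deviations from their group means correlated at 0.40, 0.70 and 0.48. Each sample's deviations correlated best with those of its own number at the other dose. These correlations come from the same values and cannot show that the numbers mark pairs. The labels do not say what a number marks.

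Called genes were those with an adjusted p of at most 0.001 and a log2 difference of at least 1. Up to 12 genes per direction were named by the rule in the results, leaving out symbols of predicted genes, histones and pseudogenes. The 33 gene lists, the comparison and its rules were chosen with earlier results of these data known. List members were named by their place at the head of a list or their smallest p, and others were chosen after their values were seen. Alternatives covered the pseudocount, the filter, the scaling, the variance model, the samples fitted, the block and each replicate left out.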

Additional observations from a re-analysis of the deposited data

Results flagged for a closer look

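In 3 genes among those whose steps differed most by the rule, all BA50 samples lay above all BA10 samples, and all A50 samples below all A10 samples. The lowest BA50 sample was little above the highest BA10 sample for H2-T22 (9.72 against 9.61 FPKM) and Ppp1r10 (14.3 against 13.9 FPKM). The steps were 0.76 with busulfan and -1.80 without for Gnl1, 0.70 and -1.44 for H2-T22, and 0.62 and -1.16 for Ppp1r10, in log2 units. The limma test of the difference gave an unadjusted p of 0.00333 for Gnl1, 0.00965 for H2-T22 and 0.0095 for Ppp1r10, and an adjusted p of 1.00 for each. Of 14381 genes tested in both arms, 15 had separate groups in opposite directions and 103 in the same direction.

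Gnl1 and Ppp1r10, a GTP-binding protein gene and a phosphatase regulator gene, lie near each other (chr17:35979851-35989462 and chr17:35916434-35932283), and H2-T22, of the many-membered major histocompatibility complex, follows at chr17:36037128-36042747. Gnl1 measured 6.79, 16.0 and 17.7 FPKM in BA10, 23.7, 21.1 and 21.1 FPKM in BA50, 6.86, 16.7 and 36.5 FPKM in A10 and 3.63, 4.94 and 3.52 FPKM in A50. The low BA10 sample was replicate 1, and without it the steps with busulfan were 0.37 for Gnl1, 0.30 for H2-T22 and 0.22 for Ppp1r10. In A10, replicate 3 was the highest sample for each of these genes (36.5 FPKM for Gnl1, 12.9 FPKM for H2-T22 and 16.8 FPKM for Ppp1r10). The steps without busulfan therefore leaned on that sample in size, though the other A10 samples also lay above all A50 samples.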

How the results depend on the processing

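No gene was called under the study's limits in any alternative run with a test. With a factor of 2 between the group means and no test, 82 genes were higher and 92 lower in BA50. The count of genes at an unadjusted p under 0.05 was 528 as reported, 1111 with no filter on low values, and 2514 with the replicate block, which changed no other call. Leaving out 1 sample gave counts from 187 to 1232: 187 without BA10 replicate 1, 269 without BA10 replicate 3 and 307 without BA50 replicate 2, but 1018 without BA10 replicate 2 and 1232 without BA50 replicate 1. The cause was not tested. Without BA10 replicate 3 and with no filter, the smallest adjusted p was 0.00634 and 0.00894. Among the genes taken by rule and the study's marker genes, 3 changed sign with no call involved: with 1 sample left out, Dazl ran from -0.22 (without BA50 replicate 2) to 0.63, Sycp3 from -0.29 to 0.08 (without BA50 replicate 1) and Sox9 from -0.14 (without BA50 replicate 2) to 0.26, with -0.07 without BA10 replicate 1 and -0.0037 after rescaling. Of the 33 lists, 12 kept the sign of their median in every alternative, among them late spermatocytes, round and elongating spermatids, Leydig cells, cytokines, p53 and NRF2 targets and DNA replication. Rescaling moved the median of all genes to -0.045. Fitting the 12 samples with AOS together, and lists without BA50 or A10 samples, were chosen after seeing the data. With 3 samples a group, the 95% interval of a log2 difference reached a median of 0.39 to either side.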

Other observations

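Some runs of neighbouring genes stood apart together in single samples. On chromosome 4, Eno1 (chr4:150236721-150248879), the glycolytic enolase, measured 456 FPKM in BA50 replicate 1 and between 7.63 and 20.8 FPKM in the other 5 samples. Its neighbours Ube4b, H6pd and Slc2a5 were also highest in BA50 replicate 1 among the 6, with 14.3, 96.2 and 44.5 FPKM. Eno1 measured 470 FPKM in A10 replicate 3 and 487 FPKM in B0 replicate 1, so high values also occurred at the lower dose and with no AOS. Daxx and Cd320 on chromosome 17, and Pigp on chromosome 16, were highest in BA50 replicate 1 too. The ribosomal protein genes Rpl3 (379 FPKM, against 53.1 to 74.1) and Rps2 (91.7 FPKM, against 5.89 to 12.1) did likewise.

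On chromosome 17, Ier3, Flot1, Abcf1, Ddr1 and Gnl1 varied widely between samples of 1 group. Ier3, an immediate early gene, measured 18.7, 66.8 and 112 FPKM in BA10, 149, 85.5 and 112 FPKM in BA50 and 2.59, 1.48 and 0.85 FPKM in A50.

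The near-identical histone genes H3c14 and H3c15 mirrored each other. H3c14 measured 2.08, 2.82 and 1.41 FPKM in BA10 and was listed at 0 in all BA50 samples, while H3c15 measured 0.32, 0 and 0 FPKM in BA10 and 2.25, 2.71 and 3.23 FPKM in BA50. They also alternated within A0, where H3c14 was listed at 0, 1.40 and 1.88 FPKM and H3c15 at 2.13, 0 and 0 FPKM. The provider gene model BGI_novel_G000296, with no symbol, measured 0, 0.22 and 0 FPKM in BA10 and 22.5, 9.22 and 6.90 FPKM in BA50 (unadjusted p = 8.01e-05, limma adjusted p = 0.587), and 0, 7.51 and 2.24 FPKM in A0. These genes were chosen after their values were seen.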
